A study of Mus musculus with 4 samples.

Results

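Liver mRNAs of the phase II conjugation and carbonyl detoxification enzymes were examined in mice of the FVB/N strain kept on a diet without added Se (0 Se, 0 ppm) or with 0.1 ppm Se as sodium selenite (0.1 Se). The members were taken by gene symbol. They are the glutathione transferases (Gst, Mgst), UDP-glucuronosyltransferases (Ugt), sulfotransferases (Sult), epoxide hydrolases (Ephx), carboxylesterases (Ces), aldo-keto reductases of family 1 (Akr1), aldehyde and alcohol dehydrogenases (Aldh, Adh), flavin monooxygenases (Fmo), carbonyl reductases (Cbr) and quinone reductases (Nqo). Of the 7000 genes listed in the deposited table, 60 were members. Whole liver RNA of 4 male mice was sequenced after ribosomal RNA removal, mice 1 and 2 on 0 Se and mice 4 and 5 on 0.1 Se, each fed its diet from weaning for 6 weeks. The study's methods describe the mice as wild type. The deposited table has 0 columns for single mice. The level used here is the authors' mean over all 4 libraries in counts per 1000000 reads (CPM), so the diets, the spread between mice and the depth of each library are not analysed here. A difference in level between genes therefore has no replicate check.

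Phase II enzymes join a small polar group such as glutathione, glucuronic acid or sulfate to a foreign or endogenous compound, which makes it more soluble and lets transporters move it into bile or blood. The carbonyl enzymes reduce or oxidise reactive aldehydes, ketones and quinones, and the esterases and epoxide hydrolases open bonds with water. Hepatocytes are a main site of both, and many of the genes lie in tandem arrays of close copies. These arrays matter for the values below, because the authors kept a read only where it aligned to 1 mRNA.

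The members were abundant for listed genes. Their levels ran from 1.003 CPM for Ugt1a2 to 4552 CPM for Mgst1, with a median of 77.4 CPM, and all listed genes had a median of 18.7 CPM. A mean above 100 CPM was found for 27 of the 60 members (45.0%) and for 13.3% of all listed genes, and a mean above 1000 CPM for 6 members and 1.21% of listed genes. To compare genes of unequal length, each CPM was divided by the length of its mRNA in kilobases (CPM per kb). On that scale the members had a median of 58.5 and listed genes one of 6.19 CPM per kb, and 48 of the 60 members lay above the latter. Their mRNAs were short, with a median of 1876 bases against 2959.5 bases over the table. Together the members held 19855 CPM, or 1.99% of all counted reads. The annotation used here (GENCODE vM1) has 142 coding gene symbols of these families, and 82 of them were not listed, whatever their level. Sums and shares of families below therefore cover the listed genes only and are not the makeup of these families in liver. They also take no account of reads dropped because they fit more than 1 mRNA.

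**Figure D1:**
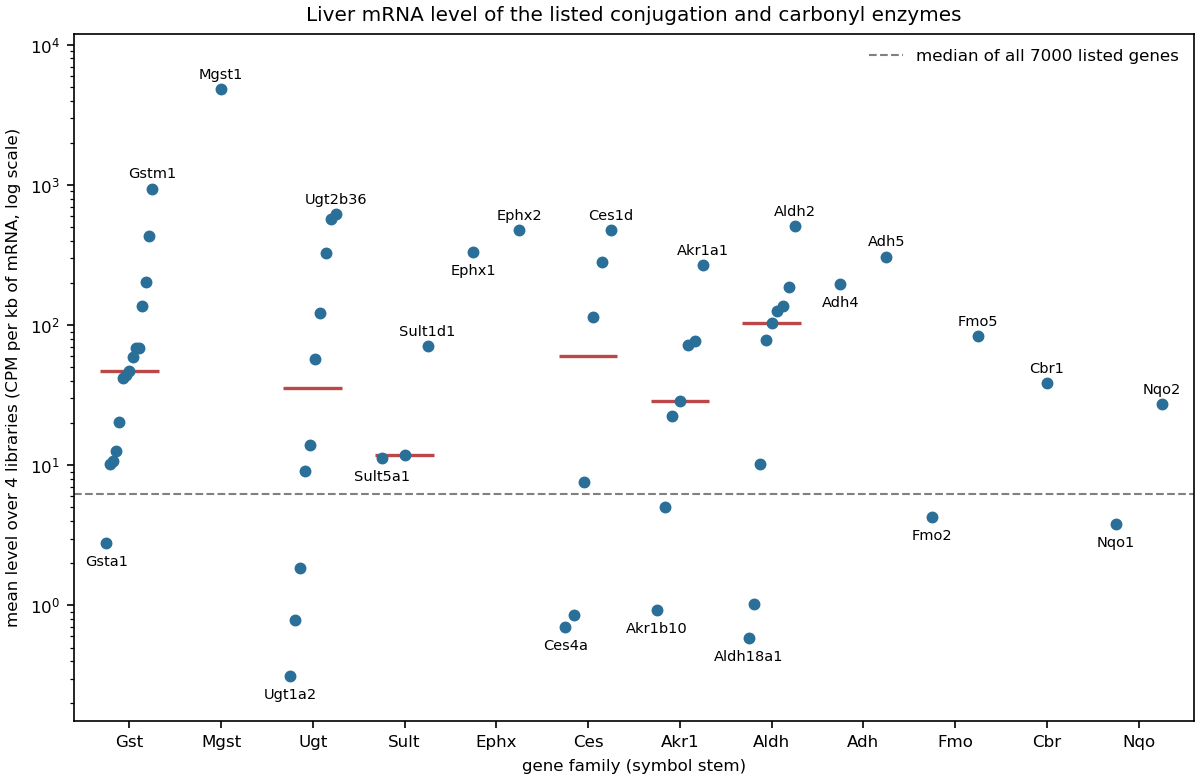
Mean level of each of the 60 members over the 4 libraries in CPM per kb of mRNA (log axis), by family. Each point is 1 gene, red bars are medians of families with at least 3 members, and the highest and lowest member of each family are named. Mgst1 stands at 4827 CPM per kb and Ugt1a2 at 0.313, and the dashed line is the median of the listed genes at 6.19.

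Mgst1, a glutathione transferase of the endoplasmic reticulum and outer mitochondrial membrane, was the most abundant member. Its 4552 CPM placed it 21st of the 7000 listed genes, and its 4827 CPM per kb placed it 9th. It held 22.9% of the summed CPM of the members and 37.9% of their summed CPM per kb. No 50-base stretch of its mRNA was found in the mRNA of another gene at up to 2 mismatches. Gstm1, the highest of the 15 listed Gst genes, stood at 1218 CPM and 941 CPM per kb, 5.13 times below Mgst1 per kb. Of 22 annotated Gst genes, 7 were not listed and cannot be ranked here.

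The other listed Gst genes were below Gstm1, and Gstz1 was the nearest to it in CPM and per kb of mRNA. Gstz1, which acts as maleylacetoacetate isomerase in tyrosine breakdown, had 853 CPM (433 CPM per kb). Gstk1, a form of mitochondria and peroxisomes, had 188 CPM (202 per kb), and Gstp1 of the pi class had 103 CPM (138 per kb). Among the 6 listed mu-class genes, Gstm2, Gstm3, Gstm6 and Gstm7 lay between 41.9 and 69.2 CPM per kb, and Gstm5 at 12.7. Gstm1 was thus 13.6 times above Gstm2, the next listed gene of its class. These 6 genes lie side by side within 122.2 kb of chromosome 3 (NCBIM37, the assembly known as mm9, 107698739 to 107820891), and their levels spanned a 74.1-fold range. The theta-class genes Gstt2 and Gstt3 stood at 44.3 and 20.3 CPM per kb, and Gsto1 of the omega class at 46.7. The lowest were Gstp2 at 10.7, Gsta2 at 10.2 and Gsta1 at 2.78 CPM per kb, and each of these 3 has a near copy.

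The alpha- and pi-class copies differ at few bases. The coding sequences of Gsta1 and Gsta2 were 97.5% identical with an identical run of 196 bases, and those of Gstp1 and Gstp2 were 98.1% identical with a run of 303 bases. A 50-base read from such a run cannot be assigned. The stretches of 30 coding bases with the most differences within 1 exon are shown for both pairs, 5′ to 3′ on the gene's strand, to let the closeness be seen. Capitals mark the bases that differ between the copies, 4 in the alpha pair and 5 in the pi pair.
Gsta1: agggtggacAtccacctActggaaGttctC
Gsta2: agggtggacGtccacctGctggaaCttctT
Gstp1: AccAtacaccattgtctacttcccaGTtcG
Gstp2: GccGtacaccattgtctacttcccaAGtcC
The Gsta1 stretch is in exon 6 of 7 at chr9:78089382-78089411 on the plus strand, and that of Gsta2 in exon 6 of 7 at chr9:78179948-78179977 on the minus strand. The Gstp1 stretch is in exon 2 of 7 at chr19:4037587-4037616 and that of Gstp2 in exon 2 of 7 at chr19:4041905-4041934, both on the minus strand. All are coding sequence in GENCODE vM1 on NCBIM37.

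How much of each member's mRNA a 50-base read could tell apart was counted in the GENCODE vM1 coding transcripts, with the transcript nearest in length to the table's entry for the 60 members and the longest one for all other genes. A window of 50 bases was counted as distinguishable where no mRNA of another gene held it with up to 2 mismatches, the limit the authors set for an alignment. For 7 members, Aldh2, Gstz1, Cbr1, Fmo2, Sult1c2, Ugt1a1 and Ugt1a2, the nearest transcript differed by more than 10% from the deposited length, so their shares cover another stretch of mRNA than their levels. Of the 60 members, 26 were distinguishable over their whole length, 28 over less than 90%, 13 over less than 50% and 8 over less than 25% of their windows. With identical copies only, 16 members (26.7%) were under 90%, and 4.90% of the 6770 listed genes with a coding transcript were. The authors aligned to RefSeq mRNAs, a somewhat different set, and FVB/N sequence can differ from the reference strain. The effect of either on the counts was not tested.

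**Figure D2:**
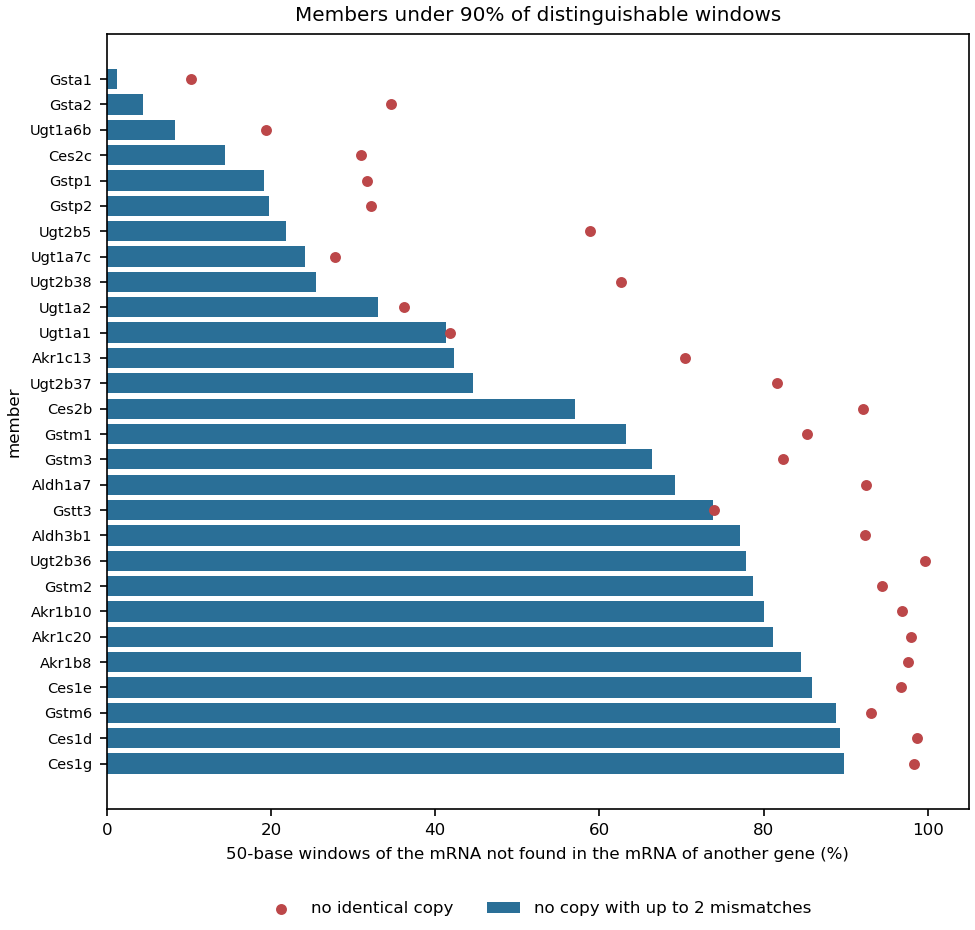
Share of 50-base windows not found in the mRNA of another gene, for the 28 members with less than 90%. Bars allow up to 2 mismatches and points ask for an identical copy. Gsta1 is lowest at 1.21% and Ces1g highest at 89.8%.

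Gsta1 had 10 distinguishable windows of 826, all starting in its 5′ UTR, and 98.3% of its windows had a copy in Gm3776, an annotated gene of the same group. Gsta2 had 36 of 821, all in its 3′ UTR, and shared most with Gm10639. Neither 2.39 CPM for Gsta1 nor 8.76 CPM for Gsta2 can therefore be read as the level of alpha-class mRNA in these livers. Gstp1 and Gstp2 had 133 and 138 distinguishable windows, 19.1% and 19.7% of each mRNA. Since the shares of this pair are alike, Gstp1 stayed above Gstp2 on either scale, 12.9-fold per kb of mRNA and 13.3-fold per distinguishable window. Gstm1 was distinguishable over 63.2% and Gstm3 over 66.5% of their windows.

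The 10 listed glucuronosyltransferases, of 21 annotated, held 3900 CPM, or 19.6% of the summed member CPM. Nearly all of it came from 4 genes of the 2b subfamily. Ugt2b36 had 1171 CPM (620 CPM per kb), Ugt2b5 1087 CPM (574 per kb), Ugt2b34 993 CPM (326 per kb) and Ugt2b35 407 CPM (121 per kb). Ugt2b38 and Ugt2b37 were far lower, at 17.1 and 3.50 CPM. The 6 listed Ugt2b genes lie on chromosome 5 in 1 array, with Sult1d1 beside them, that runs from 87318792 to 87998052. Within this array of 7 members, levels differed by up to 333-fold per kb.

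Ugt2b5 and Ugt2b38 show a large difference in level between close copies. Their coding sequences were 95.1% identical, with an identical run of 443 bases, and their mean levels were 574 and 9.03 CPM per kb, a 63.6-fold difference. Both were distinguishable over about the same part of the mRNA, 21.9% for Ugt2b5 and 25.5% for Ugt2b38, and per distinguishable window the difference was 74.6-fold. The 30-base coding stretch of exon 6 in which the pair differs most is shown, with the 5 differing bases in capitals.
Ugt2b5: TaccagtaccactCtctGgatgtgatTggA
Ugt2b38: CaccagtaccactTtctAgatgtgatCggC
The stretches lie at chr5:87554343-87554372 and chr5:87839338-87839367, both on the minus strand of NCBIM37. Ugt2b37 was 92.7% identical to Ugt2b5 in its coding sequence and stood 308-fold lower per kb, with 44.6% of its windows distinguishable. Ugt2b36 was 86.7% identical to Ugt2b5, and the levels of that pair were 1.08-fold apart per kb of mRNA, with Ugt2b36 the higher. Per 1000 distinguishable windows the order turned, with 2712 CPM for Ugt2b5 and 818 CPM for Ugt2b36, of whose windows 77.8% were distinguishable.

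The 4 listed Ugt1a genes share their downstream exons, since the locus on chromosome 1 (89991637 to 90116577) joins alternative first exons to a common set. Ugt1a1, the enzyme that conjugates bilirubin, was the highest at 186 CPM and 57.5 CPM per kb. Ugt1a6b had 32.0 CPM, Ugt1a7c 2.59 CPM and Ugt1a2 1.003 CPM. All distinguishable windows of Ugt1a1 (898), Ugt1a2 (715) and Ugt1a7c (768) start in exon 1. Ugt1a6b had 186, since Ugt1a6a holds copies of 91.7% of its windows. Per 1000 distinguishable windows, Ugt1a1 stood at 207 CPM and Ugt1a6b at 172 CPM, whereas per kb of mRNA they were 4.12-fold apart. Per 1000 windows free of an identical copy they stood at 204 and 73.4 CPM, so their closeness depends on the mismatches allowed. The transcripts used for Ugt1a1 and Ugt1a2 were 2224 and 2211 bases long, against deposited lengths of 3229 and 3206. Ugt1a2 stayed far below Ugt1a1 on either scale, 184-fold per kb of mRNA and 147-fold per distinguishable window. The size of these ratios is uncertain, since the 1.003 CPM of Ugt1a2 is near the lowest level of any listed gene, 0.830 CPM.

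**Figure D3:**
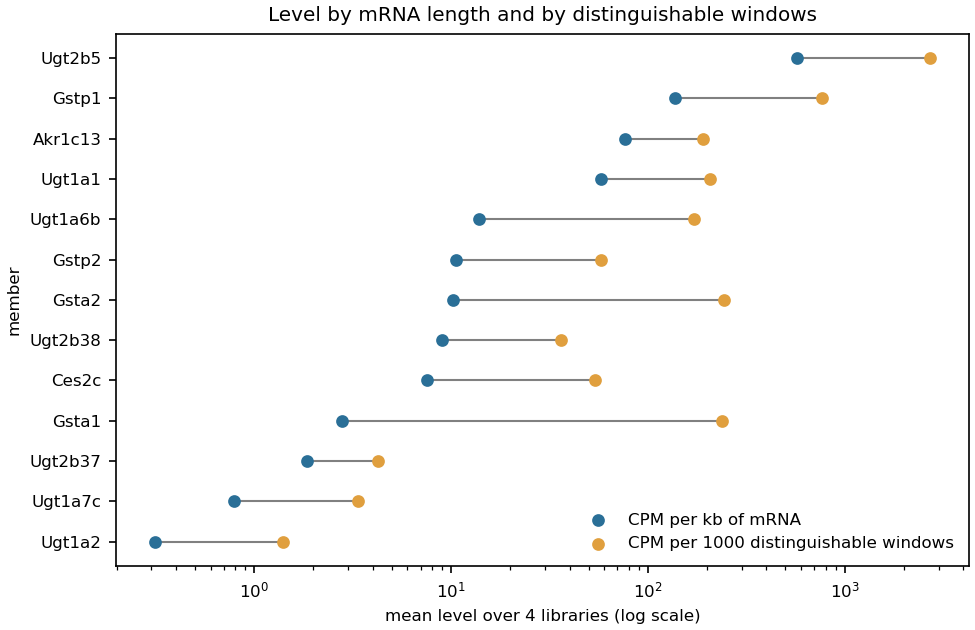
Mean level over the 4 libraries (log axis) of the 13 members with less than 50% of distinguishable windows, in CPM per kb of mRNA (blue) and in CPM per 1000 distinguishable windows (orange). Each member stands higher on the latter scale, by the smallest factor for Ugt2b37 from 1.86 to 4.25 and by the largest for Gsta1 from 2.78 to 239, a value that rests on 10 windows.

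The sulfotransferases had 3 listed genes, all above the listed median of 6.19 CPM per kb. Sult1d1, which sulfates catecholamines and other phenols, had 170 CPM (70.8 CPM per kb), and Sult1c2 and Sult5a1 had 17.3 and 13.1 CPM. The 3 genes together held 1.01% of the summed member CPM. All 3 were distinguishable over their whole length. Of 17 annotated Sult genes, 14 were not listed, which says nothing of their level.

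The 2 listed epoxide hydrolases, of 4 annotated, were both high. Ephx2, the soluble enzyme that hydrolyses fatty acid epoxides, had 1022 CPM (477 CPM per kb), and Ephx1, the microsomal enzyme that acts on epoxides left by cytochromes P450, had 556 CPM (334 per kb). They differed by 1.43-fold per kb, and both were distinguishable over their whole length. The pair held 7.95% of the summed member CPM.

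The 6 listed carboxylesterases, of 20 annotated Ces genes, differed by subfamily. The other 14, Ces1 and Ces2 genes among them, were not listed, which says nothing of their level. The 3 listed Ces1 genes, which lie together on chromosome 8 from 95689967 to 95861207, were high. Ces1d, a hydrolase of triacylglycerol and drug esters, had 933 CPM (475 CPM per kb), Ces1e 586 CPM (283 per kb) and Ces1g 260 CPM (114 per kb). The listed Ces2 and Ces4 genes of another array on that chromosome (107355472 to 107674009) were low. They had 14.9 CPM for Ces2c, 1.63 CPM for Ces2b and 1.70 CPM for Ces4a. Ces2c was distinguishable over 14.4% of its windows, with copies of 77.7% in Ces2d-ps, and stood at 7.56 CPM per kb of mRNA and 53.7 CPM per 1000 distinguishable windows. Ces1d remained above it on both scales, at 475 and 534. Ces4a, the lowest of the family per kb, was distinguishable throughout.

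Among the 7 listed aldo-keto reductases, of 16 annotated, Akr1a1 stood above the rest. This aldehyde reductase, which in mice also serves ascorbate synthesis, had 377 CPM (267 CPM per kb). The Akr1c genes, hydroxysteroid dehydrogenases in an array on chromosome 13, had 76.6 CPM per kb for Akr1c13, 72.7 for Akr1c20 and 28.8 for Akr1c19. Akr1e1, in the same array, had 22.5. Akr1c13 was distinguishable over 42.3% of its windows, the rest having copies in Akr1c12, which was not listed. The aldose reductase relatives Akr1b8 and Akr1b10 had only 6.60 and 1.24 CPM, and were distinguishable over 84.6% and 80.1%.

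The 9 listed aldehyde dehydrogenases, of 20 annotated, held 3016 CPM, or 15.2% of the summed member CPM, and 6 of the 9 lay above 100 CPM. Aldh2, the mitochondrial enzyme that clears acetaldehyde, was the highest at 1120 CPM (507 CPM per kb). Enzymes of amino acid breakdown followed, with 621 CPM for Aldh6a1 (valine, 186 per kb), 305 CPM for Aldh8a1 (136 per kb) and 422 CPM for Aldh4a1 (proline, 126 per kb). Aldh3a2, which oxidises fatty aldehydes, had 325 CPM (104 per kb), and Aldh1a7 had 162 CPM (78.6 per kb). Aldh5a1, which acts on succinic semialdehyde, had 57.2 CPM, but only 10.1 CPM per kb because its mRNA of 5647 bases is the longest of the members. Aldh18a1, which works in proline synthesis and not in aldehyde removal, and Aldh3b1 were among the lowest members, at 2.08 and 1.87 CPM. Windows were distinguishable throughout in 7 of the 9 (for Aldh2 on a transcript of 656 of its 2207 bases), the exceptions being Aldh1a7 (69.3%, copies in Aldh1a1) and Aldh3b1 (77.2%).

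Adh5, the dehydrogenase of the formaldehyde adduct of glutathione, had 473 CPM (308 CPM per kb), and Adh4, a class II alcohol dehydrogenase, had 258 CPM (197 per kb). Both lie on chromosome 3 and were distinguishable throughout. Fmo5 had 439 CPM on a long mRNA (83.0 CPM per kb) and Fmo2 14.3 CPM (4.29 per kb). Cbr1, which reduces carbonyls with NADPH, had 41.6 CPM (38.4 per kb). Nqo2 had 108 CPM (27.2 per kb). Nqo1, the quinone reductase widely used as a readout of the transcription factor Nrf2, had only 5.92 CPM (3.82 per kb), 7.13-fold below Nqo2 per kb, and both mRNAs were distinguishable throughout.

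**Figure D4:**
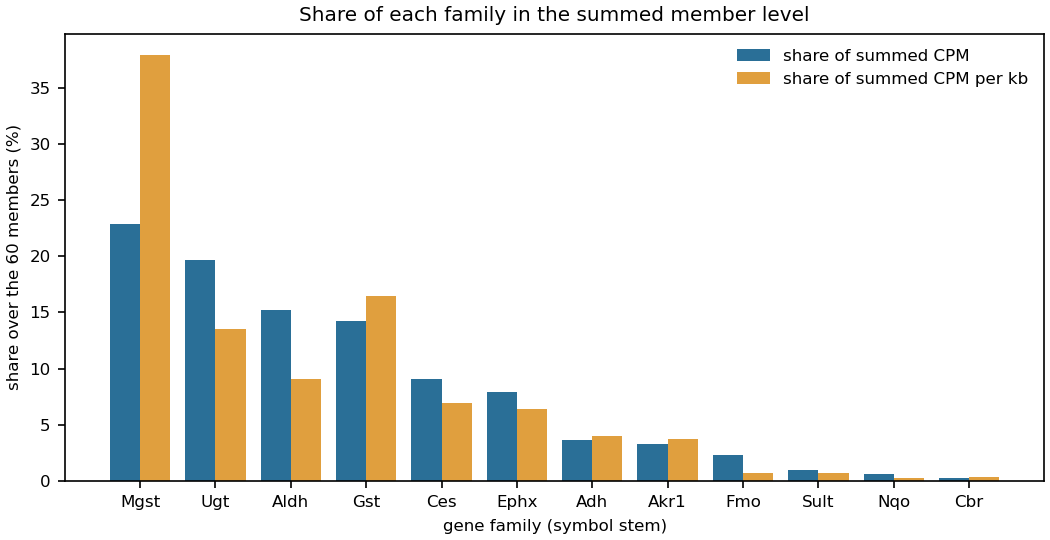
Share of each family in the summed level of the 60 members, in CPM (blue) and in CPM per kb of mRNA (orange). The 82 annotated genes of these families that were not listed are not counted. Mgst, with Mgst1 alone, leads on both scales at 22.9% and 37.9%, followed by Ugt, Aldh and Gst in CPM at 19.6%, 15.2% and 14.2%. The shares take no account of windows shared by close copies. Mgst1 was distinguishable over 100% of its windows and Ugt2b5 over 21.9%, so the order of families may not hold for mRNA amounts.

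By position, 38 of the 60 members lay in 11 groups of neighbours, counting members with at most 1 Mb between them. The same count was not made for all listed genes. Levels per kb of mRNA differed between neighbours, and the 60 members as a whole spanned a 15435-fold range. Its low end is Ugt1a2, whose CPM is near the lowest of the listed genes. Whether neighbours were less alike than other members was not tested. The range within a group went from 1.56-fold for Adh4 and Adh5 to 333-fold for the Ugt2b array, and was 184-fold for the Ugt1a locus. These ranges take no account of windows shared by close copies. Genes of separate families were joined in the Ugt2b array, by Sult1d1, and on chromosome 19, where Aldh3b1 lies with Gstp1 and Gstp2.

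Promoters were searched for the antioxidant response element core TGACNNNGC, the site of Nrf2, and the xenobiotic response element core TNGCGTG, the site of the aryl hydrocarbon receptor, on both strands from 250 bases before to 50 after each start site (RefSeq, GRCm38.p6). Of 53 members with a promoter in that set, 4 (7.55%) held the former core, against 14.0% of all genes and 17.4% of listed genes. They were Mgst1, Gstm5, Gstm7 and Akr1c19. The xenobiotic core was in 4 members (7.55%), Gsta2, Sult1d1, Aldh3a2 and Aldh18a1, against 5.84% of all genes and 9.62% of listed genes, so the members lay above the former share and below the latter. Members with the antioxidant core had a median of 35.4 CPM per kb and those without it 59.5. For the xenobiotic core these medians were 40.5 and 57.5. Each median with a core rests on 4 genes, and those with the antioxidant core ran from 12.7 (Gstm5) to 4827 CPM per kb (Mgst1). A difference in level by core was not tested. The match in the most abundant member, Mgst1, is shown with the core in capitals, which reads as the reverse complement on the gene's strand.
Mgst1: ggggcttgGCACGGTCAggaggcgg
It lies at chr6:138140463-138140487 of GRCm38.p6, plus strand. A match of letters does not show that a factor binds there, and sites outside the window were not searched.

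Genes that supply or export the conjugates were given from lists that hold no member. For glutathione, 4 of 7 genes were listed, with Gclc, the catalytic subunit of glutamate-cysteine ligase, at 435 CPM, its modifier Gclm at 109 CPM and glutathione reductase (Gsr) at 101 CPM. For UDP-glucuronic acid, 3 of 4 were listed, with Ugp2 at 680 CPM and Ugdh at 123 CPM. For sulfate, 4 of 5 were listed, with the transporter Slc26a1 at 241 CPM and the synthase Papss2 at 147 CPM. Of 7 exporters, 5 were listed, and Abcc2 of the bile canaliculus (498 CPM, 92.4 per kb) and Abcc3 of the sinusoidal membrane (427 CPM, 85.4 per kb) were above Abcc6 (31.9 per kb), Abcb1a (0.688 per kb) and Abcc4 (0.481 per kb). Of 11 regulators, 7 were listed, among them Ppara (357 CPM), Rxra (348 CPM), and the xenobiotic receptors Nr1i2 (72.8 CPM) and Nr1i3 (66.9 CPM).

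The tissue label was checked with cell type markers. Of 11 hepatocyte genes, 4 were listed, between 2386 CPM for Serpina1a and 21876 CPM for Apob, the highest of the table. Markers of other liver cells were present at lower levels, up to 180 CPM for Kupffer cells (Clec4f, 7 of 8 symbols listed). The Kupffer symbol not listed, Adgre1, is another name of the listed Emr1. Levels reached 133 CPM for sinusoidal endothelium (Stab2, 5 of 6) and 185 CPM for stellate cells (Dcn, 6 of 6). Cholangiocyte, lymphocyte and erythroid lists had 1 listed gene each, Spp1 at 25.1, Ptprc at 21.9 and Alas2 at 37.8 CPM. Since whole liver was sequenced, fewer cells of a type and less RNA per cell cannot be told apart for any member.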

How the data were processed

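RNA-Seq of mouse liver used 2 mice for each diet. As stated in the study's methods, the authors removed adapters with the FastX toolkit and ribosomal reads with Bowtie, and aligned the 50-base reads with Bowtie to the longest RefSeq mRNA of each gene (mm9). Reads were kept if they aligned uniquely, and 2 mismatches were allowed. The authors' deposited table gives the mRNA length and the log2 of the mean CPM over all libraries, from edgeR. The authors tested only genes that exceeded 1 CPM in 3 or more samples. The sources used here give no tool versions. The table also holds the authors' own comparison of the diets (log2 fold change, deposited p-value and FDR). These are not used here, and the p-value was read only to find that 0 of the 7000 rows were out of its order. Genes not listed were thus not tested or had a larger p-value, whatever their level. With 0 columns for single mice, the planned count model was not run, depth is unknown, and no interval is given.

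Levels were computed as 2 to the power of the deposited log2 mean CPM, and divided by mRNA length for CPM per kb. No pseudocount or filter was added. GENCODE vM1 on NCBIM37, the assembly of mm9, gave positions, transcripts and coding sequences. All 60 members matched, 59 by symbol and 1 by synonym (Akr1a1), and for 53 the nearest transcript was within 10% of the deposited length. The exceptions include Aldh2, Gstz1, Ugt1a1 and Ugt1a2. The window count was tested on simulated sequences with planted copies. Pairs of coding sequences were aligned globally with Biopython 1.88, identity being matches over all alignment columns. Python 3.11.15, numpy 2.4.6, pandas 2.3.3 and matplotlib 3.10.9 were used. Members and lists were chosen with earlier results of these data known. Values are given for the 3 highest members per kb and the lowest of each family (all of a family of up to 4), and for each member above 100 CPM, with others added to complete an array or a pair of copies.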

Additional observations from a re-analysis of the deposited data

How the results depend on the processing

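Leaving out each mouse in turn, another normalization and no filter on low counts were not run, because the deposited table holds 0 columns for single mice. No paired analysis was made, because the diets were given to different mice (1 and 2, 4 and 5) and the result comes from no test. With no spread to judge by, a value was taken as moved when it changed by more than 1.5 times. Of 20 values under alternatives, 15 did not. With 200 or 50 CPM in place of 100 CPM as the level that counts as high, 21 and 36 members were above it. The median of 58.5 CPM per kb became 60.3 with the windows a read can start in as the length, 72.7 for members of at least 5 CPM and 73.4 with windows free of an identical copy, and 92.3 with windows free of a copy at up to 2 mismatches. The last of these was chosen after seeing the data and, like the one before it, covers only the 53 members with a transcript of like length, whose median was 68.5 CPM per kb of mRNA. The 5 highest members held 46.1% of the summed CPM, 58.7% per kb, and 36.7% without Mgst1, an alternative also added after seeing the data. Per kb the share of Mgst was 37.9% in place of 22.9%, that of Aldh 9.03% in place of 15.2%, of Fmo 0.686% in place of 2.28% and of Nqo 0.244% in place of 0.575%, which follows from the lengths of their mRNAs.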

Other observations

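The lists also held further targets of Nrf2 and genes that mark zones of the liver lobule. Of 7 further Nrf2 targets, 6 were listed. Beside Gclc and Gclm, Txnrd1 (thioredoxin reductase 1) had 97.8 CPM, Osgin1 52.2 CPM, Srxn1 (sulfiredoxin) 40.8 CPM and Hmox1 (heme oxygenase 1) 27.8 CPM, and all 6 lay between 14.5 and 127 CPM per kb of mRNA, above Nqo1 at 3.82. Of 6 genes of hepatocytes near the central vein, 4 were listed, with Cyp2e1 at 7257 CPM, Cyp1a2 at 618 CPM, Slc1a2 at 143 CPM and Lgr5 at 3.68 CPM. Of 7 genes of the portal zone, 4 were listed, with Pck1 at 2089 CPM, Hal at 172 CPM, Gls2 at 136 CPM and Sds at 98.6 CPM.

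By distinguishable windows the order of the members changed most for the alpha-class copies, which moved from places 45 (Gsta2) and 52 (Gsta1) of 60 per kb of mRNA to places 15 and 16. Gstp1 moved from place 17 to 6, Ugt1a1 from 31 to 18 and Ugt1a6b from 40 to 22. Mgst1 was 1st on both scales. The new places of Gsta1 and Gsta2 rest on 10 and 36 windows and depend on the mismatches allowed. By distinguishable windows their levels were 239 and 243 CPM, but 28.1 and 30.8 CPM for the same number of windows free of an identical copy. For Gstp1 these values were 771 and 466 CPM, for Ugt1a6b 172 and 73.4, and for Ugt1a1 207 and 204. Places by windows free of an identical copy are not given. All places by windows also depend on the reference set of mRNAs, which was GENCODE vM1 here and RefSeq in the study.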
